A study of Mus musculus with 14 samples.

Results

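The genes examined were the 10 listed genes of triglyceride lipolysis and lipid droplets, Pnpla2, Lipe, Mgll, Lpl, Dgat1, Dgat2, Plin2, Plin4, Plin5 and Ces1d, in hearts of mice that lost Fam210a from cardiomyocytes. They were taken by symbol from 2 deposited tables of read counts that each list 53735 symbols, and all 10 were found and tested. The hearts came from male C57BL/6 mice. Knockout (cKO) mice had the genotype Fam210afl/fl, alphaMHCMCM/+, in which Cre, expressed from the Myh6 promoter of cardiomyocytes, deletes Fam210a, a gene of a mitochondrial protein, once tamoxifen is given. Control mice carried the same Cre transgene without the floxed alleles, and all groups received tamoxifen. Hearts were taken about 5 weeks after tamoxifen (early, 4 cKO and 4 control), when heart function was described as normal, or about 10 weeks after it (late, 3 cKO and 3 control), when function was described as strongly impaired. The animals' ages were not given in the sources used here. Other cells of the heart keep the gene, since the promoter is active in cardiomyocytes. The 2 times were deposited as separate tables, and effects of time and of table cannot be told apart. Each cKO group was compared with the controls of its own table.

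Heart muscle takes most of its fuel from fatty acids. Lipoprotein lipase (Lpl) releases them from circulating triglyceride at the capillary wall, and inside the cell the acyltransferases Dgat1 and Dgat2 can store them again as triglyceride in lipid droplets. Perilipins (Plin) coat the droplets and control access to them. Adipose triglyceride lipase (Pnpla2) removes the first fatty acid from a stored triglyceride, hormone-sensitive lipase (Lipe) the next, and monoglyceride lipase (Mgll) the last, while Ces1d is a carboxylesterase of the endoplasmic reticulum that hydrolyses triglyceride in mouse liver and fat.

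Libraries held 15657298 to 19466469 counts early and 29989076 to 35750964 late. Levels are given as CPM, counts relative to the scaled library total. Fam210a itself stood at 66.8 ± 3.41 CPM in late cKO hearts against 128 ± 7.27 CPM in late controls (SD, n = 3 each) and fell (log2 fold change -0.94, adjusted p = 6.50e-05, edgeR). Early it stood at 146 ± 10.2 CPM in cKO hearts against 170 ± 6.04 CPM in controls (SD, n = 4 each), which did not pass (adjusted p = 0.170). In bulk heart RNA, fewer cells of a type and less RNA per cell cannot be told apart. All 10 cardiomyocyte markers were detected. They summed to 67759 to 81580 CPM in late cKO hearts and 75610 to 86273 CPM in late controls. Early, the sums were 66303 to 71221 CPM in cKO hearts and 73583 to 81181 CPM in controls. Late, Myl2, Myl3, Tnni3 and Pln of this list fell and Tnnc1 and Mybpc3 rose. Of 7 fibroblast markers, 2 rose and 3 fell late. Their sums overlapped, at 727 to 1038.5 CPM in late cKO hearts and 880 to 1150 CPM in late controls. Endothelial markers summed to 620 to 627 CPM in late cKO hearts and 1148 to 1339 CPM in late controls, and 8 of 10 of them fell. Macrophage markers summed to 199 to 252 CPM in late cKO hearts and 396 to 398 CPM in late controls, and 7 of 9 fell. Of 5 markers of smooth muscle and pericytes, 4 fell and Acta2 rose, and their sum was 1544 to 2280 CPM in late cKO hearts and 1134 to 1259 CPM in late controls. Of 6 atrial markers, Nppa rose and Bmp10 was called down, with sums of 1764 to 2978 CPM in late cKO hearts and 142 to 1001 CPM in late controls. Bmp10 had 14, 17 and 22 counts in late cKO hearts against 0, 3 and 3468 in late controls. Control replicate 3 alone was thus above the cKO hearts. Early, the atrial markers summed to 63.1 to 1558 CPM in cKO hearts and 67.1 to 349 CPM in controls. Early cKO replicate 2 had 2846 Bmp10 counts, against 0 in each other early cKO heart and at most 1 in early controls. Mitochondrially encoded genes took 11.2 to 16.0% of counts in late cKO hearts and 19.7 to 22.6% in late controls. The part of these shifts in the results was not tested, except that leaving out the mitochondrially encoded genes changed no call among the 10 genes. Late cKO replicate 3 stood apart from the other 2 late cKO hearts. The chi-square per gene between it and them was 107 and 101, against 21.5 between those 2, and values without it are given beside the late results whose call it changed or that it moved by over 1.5 times. The title of early cKO replicate 4 names it a knockout, but its genotype field holds the control genotype. This heart was kept with the cKO hearts. Its Fam210a level was 150 CPM, against 158, 135 and 140 CPM in the other early cKO hearts and 173, 178, 166 and 165 CPM in the early controls.

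RefSeq promoter sequences (GRCm38.p6) were at hand for 6 of the 10 genes, and those of the 3 perilipins are shown because these genes of 1 family moved in different directions late. Each runs 5′ to 3′ from 250 bases before the transcript start to 30 bases after it, and motifs are in capitals. The windows are 4:86670030-86670309 for Plin2, 17:56109753-56110032 for Plin4 and 17:56117519-56117798 for Plin5 (the upstream of its 2 annotated starts), all on the minus strand. Plin4 and Plin5 are neighbours on chromosome 17, with gene bodies from 56100591 to 56109803 and from 56111601 to 56117596.
Plin2: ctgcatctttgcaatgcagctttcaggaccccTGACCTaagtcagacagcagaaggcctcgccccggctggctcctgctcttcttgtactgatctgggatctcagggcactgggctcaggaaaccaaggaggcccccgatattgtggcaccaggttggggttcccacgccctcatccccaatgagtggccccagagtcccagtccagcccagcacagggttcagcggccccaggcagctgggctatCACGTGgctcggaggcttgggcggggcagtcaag
Plin4: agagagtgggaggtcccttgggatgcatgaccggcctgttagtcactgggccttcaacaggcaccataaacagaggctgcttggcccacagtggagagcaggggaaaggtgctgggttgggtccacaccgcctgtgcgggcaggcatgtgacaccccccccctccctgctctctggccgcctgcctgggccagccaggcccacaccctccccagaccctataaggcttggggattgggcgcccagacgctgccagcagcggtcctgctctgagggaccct
Plin5: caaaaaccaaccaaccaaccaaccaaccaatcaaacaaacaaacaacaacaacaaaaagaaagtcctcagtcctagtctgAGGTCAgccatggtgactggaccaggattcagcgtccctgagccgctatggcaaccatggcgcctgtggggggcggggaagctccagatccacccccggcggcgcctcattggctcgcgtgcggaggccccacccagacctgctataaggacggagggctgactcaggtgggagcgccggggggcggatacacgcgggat
The letters CACGTG (an E-box, which reads the same on both strands) began 4 bases before the Plin2 start, running across it, and occurred in 7.15% of 32851 promoter windows. All windows were searched some bases further past the start than the stretches printed here. The letters AGGTCA, a recognition motif of nuclear receptors searched on both strands, occurred in the Plin2 window on the opposite strand, as TGACCT, and in the Plin5 window on the coding strand. AGGTCA was found in 16.3% of all windows. The Plin4 window held neither, and CACGTG was also found in windows of Lipe and Mgll. The direct repeat AGGTCANAGGTCA, which holds AGGTCA at both ends, was in none of the 3 windows and in 0.0396% of all windows, and TGATGNAA, letters of the amino acid response element, was in none of the 3 and in 3.97% of all. A match describes the letters only.

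In late hearts, the 10 genes split. Pnpla2, Dgat1, Plin2 and Plin4 rose in cKO hearts, Ces1d, Plin5, Dgat2, Mgll and Lpl fell, and Lipe did not pass the test (edgeR's quasi-likelihood test, adjusted p under 0.05). The 4 rises stood beside 31.8% of all 14942 tested genes called up, and the 5 falls beside 33.2% called down, so the counts alone lay near the level of all genes. In 10 of 10 genes the late groups did not overlap in CPM, beside 69.8% of all tested genes. The median absolute log2 fold change was 0.86 over the 10 genes and 0.71 over all tested genes, and the median signed value was -0.36 over the 10 and -0.02 over all. In early hearts 0 of the 10 genes were called, beside 0.613% of 13529 tested genes.

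**Figure D1:**
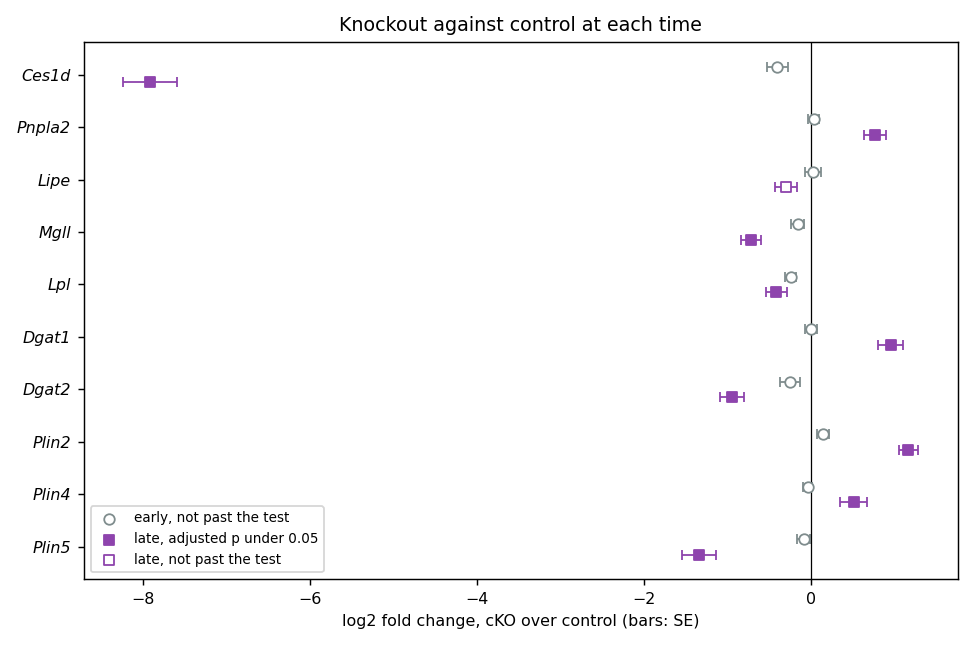
Log2 fold change of cKO over control for each gene, early (circles) and late (squares), with standard errors as bars, and filled symbols where the adjusted p was under 0.05. Ces1d stands alone at -7.91 late, the other late values lie between -1.34 and 1.16, and every early value lies between -0.40 and 0.14.

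Ces1d changed most of the 10. This gene (chromosome 8, 93166068 to 93197838 on the minus strand) had 1.05, 0.512 and 0.651 CPM in the late cKO hearts, against 238, 153 and 144 CPM in the late controls. Every late cKO heart was near 1 CPM or below it, and every control was above 140 CPM. The mean level was 242-fold lower in cKO hearts, with 35, 18 and 19 counts in cKO libraries against 7323, 4871 and 4803 in controls. This is a log2 fold change of -7.91 (SE 0.32, adjusted p = 3.37e-07), which lay between -8.26 and -7.63 in all alternatives run. Ces1d belongs to a cluster of closely related carboxylesterase genes, in which reads can be assigned wrongly. None of its 2266 distinct 100-base stretches, the length of the reads, occurs in a transcript of another gene. The 7 other Ces1 genes held 59 counts together in the 3 late cKO libraries and 106 in the late controls, fewer than the 4803 or more counts of Ces1d in each control library. Of these, Ces1e held 13 counts in late cKO libraries and 88 in late controls and was called down. Ces1a went the other way, with 38 counts in late cKO libraries and 4 in late controls, and was not tested.

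Ces1d is also expressed by fat cells, and hearts can carry adipose tissue. The 9 adipocyte markers summed to 11.8, 4.38 and 7.95 CPM in the late cKO hearts, against 6.87, 40.0 and 27.1 CPM in the late controls, and these groups overlapped. Adiponectin (Adipoq), which defines fat cells, stood at 0.421, 0.0284 and 0.103 CPM in late cKO hearts, against 0.130, 1.51 and 1.02 CPM in late controls. Of the 7 adipocyte markers tested late, Adipoq, Car3 and Tusc5 fell and Adig rose. Control replicate 1 had the lowest adipocyte sum and the highest Ces1d level of the 3 controls. Early, the adipocyte sum ran the other way, at 8.11 to 32.3 CPM in cKO hearts and 4.03 to 7.30 CPM in controls, while Ces1d was at 94.2 to 110 CPM in cKO hearts and 115 to 184 CPM in controls. Hepatocyte markers summed to at most 0.482 CPM in any late heart. The part of fat tissue in the Ces1d values was not tested.

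**Figure D2:**
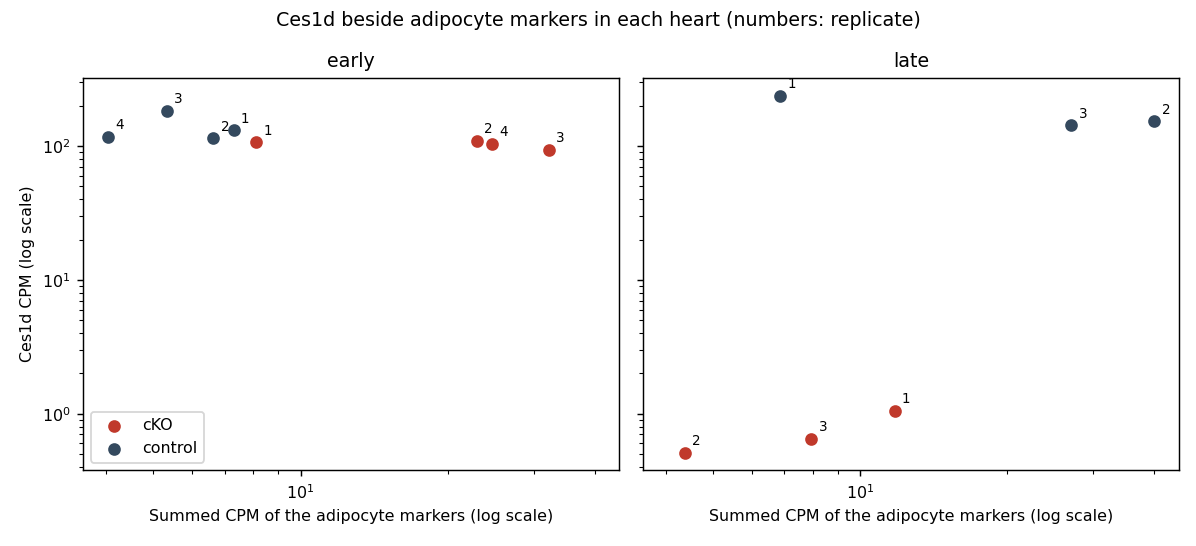
Ces1d CPM against the summed CPM of 9 adipocyte markers in each heart, early (left) and late (right), both axes on log scales, cKO in red and control in blue-grey, numbers giving the replicate. Late control replicate 1, at 6.87 CPM of adipocyte markers, has the highest Ces1d level, and the 3 late cKO hearts lie near or below 1 CPM of Ces1d.

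Among the 3 neutral lipases that act in sequence, the first rose and the last fell. Pnpla2 stood at 699.8, 622 and 792 CPM in the late cKO hearts, against 452, 397 and 397 CPM in the late controls. Every cKO heart was above every control, and the level was 1.70-fold that of controls (log2 fold change 0.76, SE 0.13, adjusted p = 0.000822). Lipe, by contrast, stood at 61.8, 47.5 and 53.0 CPM in late cKO hearts against 71.1, 64.1 and 64.7 CPM in late controls. The groups did not overlap, with lower values in cKO, but the difference did not pass the test (log2 fold change -0.30, SE 0.13, adjusted p = 0.0621). Without cKO replicate 1 it did (-0.40, adjusted p = 0.0247). In all alternatives run, the late Lipe value lay between -0.40 and -0.20, with adjusted p from 0.0247 to 0.236. Of the exon bases of Lipe, 15.6% are shared with an antisense gene, 4732471J01Rik, which is not among the counted symbols. The library kit does not mark strand, so reads of that gene there cannot be told from those of Lipe. Mgll stood at 110, 120 and 138 CPM in late cKO hearts against 211, 202 and 190 CPM in late controls. All 3 cKO hearts were lower (log2 fold change -0.71, SE 0.12, adjusted p = 0.000691). Within a heart, the ratio of Mgll to Lipe counts had a geometric mean of 2.27 in late cKO hearts and 3.02 in late controls, and the groups did not overlap. That is a log2 difference of -0.41, which was -0.24 without cKO replicate 1. With 3 against 3 hearts an exact permutation test cannot give less than p = 0.1, which is the value here and for the 3 other late ratios (adjusted over the 4 ratios, 0.1).

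Partners that regulate lipolysis were measured in the same hearts. Of 6 tested genes of that list, 3 rose and 1 fell late, with a median log2 fold change of 0.43. These 4 calls stood beside 65.0% of all tested genes called late in either direction, so the count lay near the level of all genes. Abhd5, the protein that activates Pnpla2, stood at 99.6, 104 and 108 CPM in late cKO hearts against 51.7, 49.7 and 47.3 CPM in late controls. All 3 cKO hearts were above all controls (log2 fold change 1.06, SE 0.10, adjusted p = 2.63e-05). G0s2, which inhibits Pnpla2, stood at 19.8, 15.9 and 44.3 CPM in late cKO hearts against 63.7, 42.5 and 35.4 CPM in late controls. The value of cKO replicate 3, the heart that stood apart, lay within the control range, and the other 2 lay below it. The change in G0s2 did not pass the test (log2 fold change -0.83, SE 0.37, adjusted p = 0.0730), and did without that heart (-1.39, adjusted p = 0.000112). It was -0.55 without cKO replicate 2 (adjusted p = 0.215) and -0.54 without control replicate 1 (adjusted p = 0.261). The ratio of G0s2 to Pnpla2 counts averaged 0.0343 in late cKO hearts and 0.110 in late controls (geometric means), lower in every cKO heart (p = 0.1, exact permutation test, two-sided, n = 3 each). Hilpda, another inhibitor of Pnpla2, averaged 5.60 ± 2.05 CPM in late cKO hearts and 3.88 ± 0.60 CPM in late controls (SD, n = 3 each), which did not pass (adjusted p = 0.112). Its values were 3.67, 5.37 and 7.75 CPM in late cKO hearts against 4.56, 3.65 and 3.42 CPM in late controls, so the groups overlapped. The log2 fold change of 0.53 was 0.76 without cKO replicate 1 (adjusted p = 0.0159) and 0.24 without cKO replicate 3 (adjusted p = 0.348).

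The largest moves in that list were in genes that handle the products of lipolysis. Abhd6, a second monoglyceride hydrolase, stood at 59.3, 60.7 and 75.1 CPM in late cKO hearts against 9.25, 9.15 and 8.999 CPM in late controls. It was thus 7.12-fold higher in cKO (log2 fold change 2.83, SE 0.13, adjusted p = 6.28e-07), opposite in direction to Mgll. Aqp7, a channel that lets glycerol cross the membrane, stood at 1.63, 1.68 and 1.78 CPM in late cKO hearts against 40.3, 43.0 and 33.1 CPM in late controls. The cKO hearts were close together and 22.9-fold lower in mean than controls (log2 fold change -4.52, SE 0.16, adjusted p = 1.88e-07). Abhd12, a lysophospholipid and monoglyceride hydrolase, rose with a log2 fold change of 0.33 (SE 0.12, adjusted p = 0.0417). That call was lost without late cKO replicate 3 (adjusted p = 0.0536) and without any 1 of the 3 late controls (adjusted p = 0.0745 to 0.132).

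Lpl, the gene of the lipase at the capillary wall, fell by less. It stood at 3394, 3207 and 3529 CPM in late cKO hearts against 4434, 4279 and 4781 CPM in late controls. The groups did not overlap, with a level in cKO hearts 0.751 times that of controls (log2 fold change -0.41, SE 0.13, adjusted p = 0.0170). The call was lost without cKO replicate 2 (adjusted p = 0.0741) or control replicate 3 (adjusted p = 0.0720). Of 8 tested genes that handle Lpl, 2 rose and 3 fell late, a count near the 65.0% of all tested genes called. Angptl4, an inhibitor of Lpl and a known target of fatty acid sensing, stood at 56.0, 61.3 and 77.1 CPM in late cKO hearts against 7.26, 10.9 and 6.39 CPM in late controls. All late cKO hearts were far above controls (log2 fold change 2.98, SE 0.22, adjusted p = 5.79e-06). Sel1l, an adaptor needed for Lpl to mature in the endoplasmic reticulum, rose (log2 fold change 0.71, SE 0.13). Vldlr, a receptor for triglyceride-rich lipoproteins, fell (log2 fold change -1.44, SE 0.21), as did Lmf1, which folds Lpl. Gpihbp1, which holds Lpl on capillary endothelium, stood at 104, 106 and 151 CPM in late cKO hearts against 103, 90.1 and 71.0 CPM in late controls, and did not pass the test (log2 fold change 0.45, SE 0.18, adjusted p = 0.0555). It passed without cKO replicate 1 (adjusted p = 0.0382), without control replicate 1 (adjusted p = 0.0365), in DESeq2 (adjusted p = 0.0415) and without a filter on low counts (adjusted p = 0.0222). Without cKO replicate 3, the highest of the cKO hearts, the log2 fold change was 0.27 (adjusted p = 0.100). Gpihbp1 is 1 of the 10 endothelial markers, 8 of which fell.

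The 2 acyltransferases that complete triglyceride moved in opposite directions. Dgat1 stood at 35.0, 37.4 and 47.5 CPM in late cKO hearts against 22.8, 20.3 and 18.7 CPM in late controls. The groups were well separated (log2 fold change 0.95, SE 0.15, adjusted p = 0.000422). Dgat2 stood at 195, 184 and 215 CPM in late cKO hearts against 452, 364 and 332 CPM in late controls, lower in each cKO heart than in any control (log2 fold change -0.95, SE 0.14, adjusted p = 0.000347). The ratio of Dgat1 to Dgat2 counts had a geometric mean of 0.200 in late cKO hearts and 0.0542 in late controls, a log2 difference of 1.89 that stayed between 1.82 and 1.97 when any 1 heart was left out (p = 0.1, exact permutation test, two-sided, n = 3 each). Early, the same ratio was 0.0653 in cKO hearts and 0.0551 in controls (p = 0.229, exact permutation test, n = 4 each, smallest possible 0.0286). Of 14 tested genes of the steps that lead to these enzymes, 7 rose and 2 fell late, beside 31.8% of all tested genes called up and 33.2% called down, with a median log2 fold change of 0.41. The 9 calls together lay near the 65.0% of all genes called. Glycerol kinase (Gk) averaged 84.8 ± 5.85 CPM in late cKO hearts and 22.5 ± 2.06 CPM in late controls (SD, n = 3 each), with a log2 fold change of 1.92 (SE 0.12). Gk and Gpd1, 2 of the genes that supply glycerol 3-phosphate, both rose, Gpd1 with a log2 fold change of 1.17 and an SE of 0.18. The phosphatidate phosphatases split, with Lpin1 lower (log2 fold change -2.26, SE 0.23) and Lpin2 higher (0.98, SE 0.18) in late cKO hearts. Lpin3, Gpd1l, Agpat3 and Agpat5 also rose, and Agpat2 fell.

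**Figure D3:**
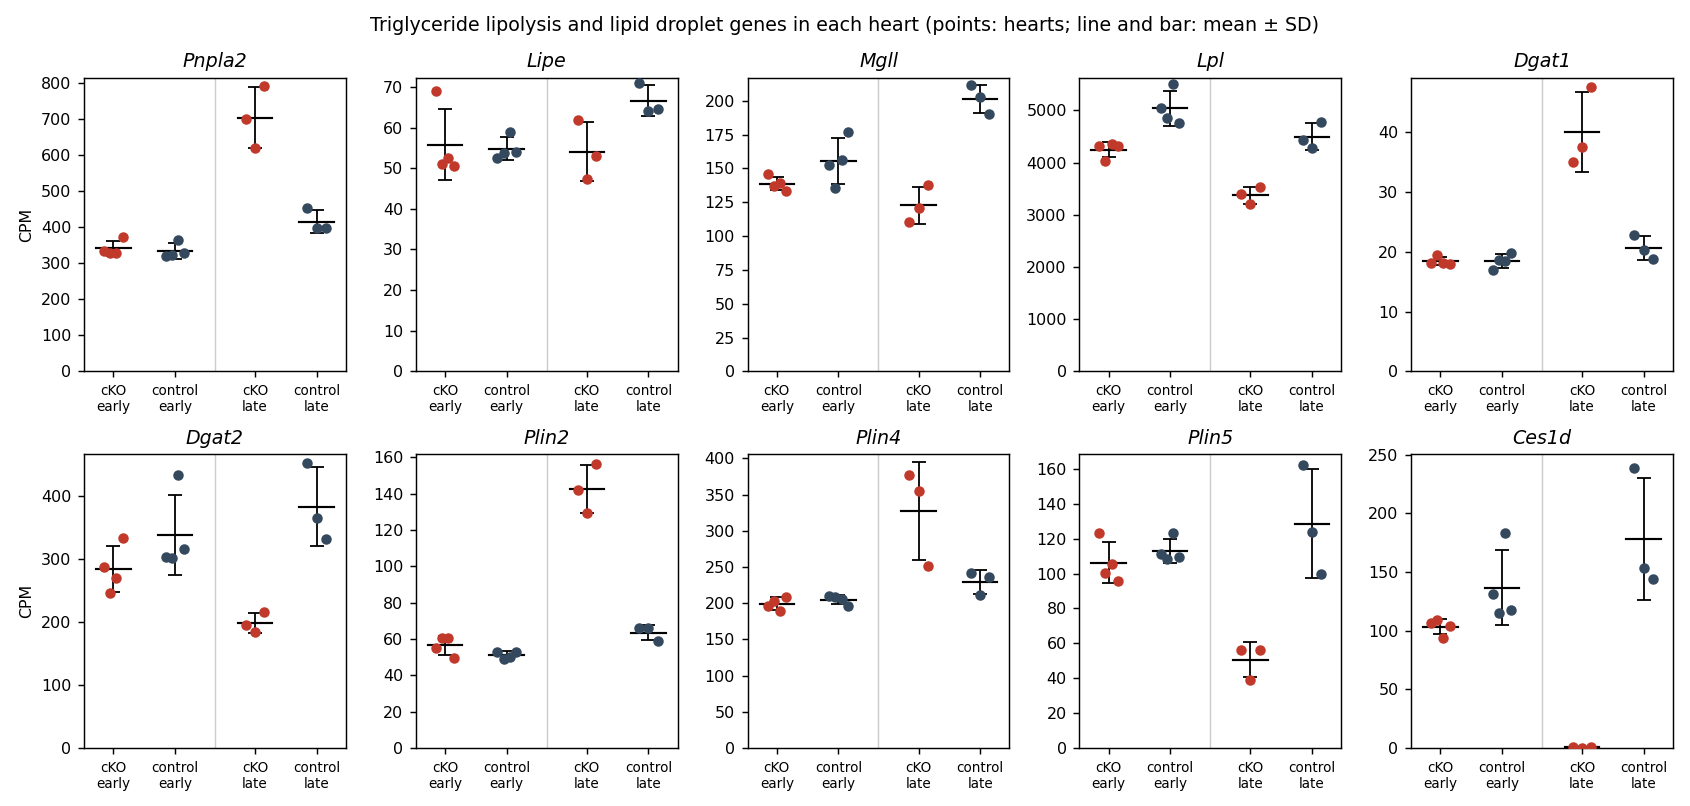
CPM of each of the 10 genes in every heart, with a linear axis from 0 for each gene, cKO in red left of control in blue-grey at each time, and the mean and SD as black lines. The late groups are apart in all 10 panels and the early groups in the Lpl and Ces1d panels. The 2 times come from separate tables.

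The perilipins changed in makeup. Plin2, the broadly expressed coat protein that follows droplet content, stood at 142, 130 and 156 CPM in late cKO hearts against 65.9, 66.1 and 58.7 CPM in late controls. All cKO hearts were above all controls, and the mean was 2.24-fold that of controls (log2 fold change 1.16, SE 0.12, adjusted p = 3.26e-05). Plin5, the perilipin of oxidative muscle that tethers droplets to mitochondria and shields them from lipase, stood at 56.4, 39.2 and 56.4 CPM in late cKO hearts against 162, 124 and 100.0 CPM in late controls. Every cKO heart was below every control (log2 fold change -1.34, SE 0.20, adjusted p = 0.000379). Plin4, a perilipin of fat and muscle, stood at 377, 355 and 251.0 CPM in late cKO hearts against 241, 211 and 237 CPM in late controls. Replicate 3, the heart that stood apart, was the lowest of the cKO hearts and only just above the controls. The rise in Plin4 passed the test (log2 fold change 0.51, SE 0.16, adjusted p = 0.0194) and was larger without that heart (0.68, adjusted p = 9.60e-05). The call was lost without cKO replicate 1 (adjusted p = 0.0638), cKO replicate 2 (0.0632) or control replicate 2 (0.0872). Plin3, the remaining perilipin above trace level, fell to 102 ± 12.6 CPM in late cKO hearts, against 130 ± 8.36 CPM in late controls (SD, n = 3 each; adjusted p = 0.0319). That call was lost without cKO replicate 2 (adjusted p = 0.133) and without any 1 of the controls (0.0689 to 0.133). Plin3 was already lower in every early cKO heart, at 94.5, 101, 118 and 120 CPM against 123, 123, 125 and 125 CPM in early controls. That early difference did not pass (log2 fold change -0.20, adjusted p = 0.393, edgeR). A change in Plin3 between the times was not shown (late minus early -0.14, adjusted p = 0.406, edgeR). Plin1, the perilipin of fat cells, had 10, 0 and 0 counts in late cKO libraries against 4, 53 and 53 in late controls, too few to be tested.

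Per kilobase of exon, the 4 perilipins other than Plin1 could be set against each other. Plin5 made up 16.3 ± 3.00% of their summed level in late cKO hearts against 39.7 ± 5.02% in late controls (SD, n = 3 each). Plin2 made up 27.5 ± 3.70% in late cKO hearts against 11.8 ± 1.04% in late controls. Plin4 made up 38.1 ± 6.41% in late cKO hearts against 26.0 ± 2.98% in late controls. Plin5 thus had the largest mean share in late controls and the smallest in late cKO hearts. With the length of the principal transcript in place of all exons, an alternative chosen after seeing the data, the Plin4 share no longer separated the groups, and the Plin5 share was 13.7 ± 2.25% in cKO hearts against 36.9 ± 4.78% in controls. The ratio of Plin2 to Plin5 counts had a geometric mean of 2.84 in late cKO hearts and 0.503 in late controls, a log2 difference of 2.498 (p = 0.1, exact permutation test, two-sided, n = 3 each). Early, the shares lay close together, with Plin5 at 39.1 ± 3.56% in cKO hearts and 39.5 ± 1.41% in controls (SD, n = 4 each).

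**Figure D4:**
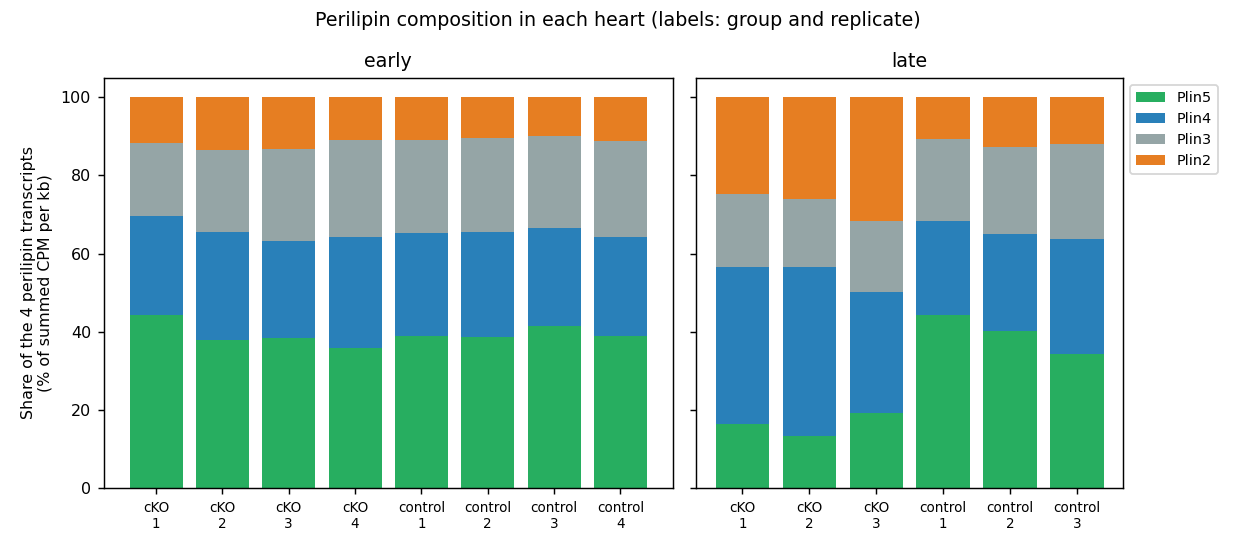
Share of Plin2, Plin3, Plin4 and Plin5 in their summed CPM per kilobase of exon in each heart, early (left) and late (right), cKO hearts left of controls. In late cKO hearts Plin5 takes 13.3 to 19.2% and in late controls 34.4 to 44.4%.

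Of 10 tested genes of the droplet coat and of droplet assembly, 3 rose and 5 fell late, beside 31.8% of all tested genes called up and 33.2% called down, with a median log2 fold change of -0.49. The 2 Fitm genes, whose proteins bind triglyceride in the endoplasmic reticulum and help droplets form, both fell. Fitm1, the form of muscle, stood at 8.70, 6.99 and 10.3 CPM in late cKO hearts against 104, 85.4 and 82.2 CPM in late controls. That was 10.5-fold lower in cKO hearts, with no overlap (log2 fold change -3.39, SE 0.18, adjusted p = 9.16e-07). Fitm2 averaged 78.2 ± 7.12 CPM in late cKO hearts and 220.4 ± 17.7 CPM in late controls (SD, n = 3 each; log2 fold change -1.49, SE 0.12). Cidea, which helps droplets fuse, rose to 77.5 ± 24.02 CPM in late cKO hearts, against 26.2 ± 4.25 CPM in late controls (SD, n = 3 each; log2 fold change 1.57, SE 0.22). Cidea is also a marker of brown fat, and it made up almost all of the summed brown fat markers, which ran from 60.9 to 105.7 CPM in late cKO hearts and from 21.6 to 29.9 CPM in late controls. The part of brown fat in this value was not tested. Rab18, a small GTPase of droplets, rose (log2 fold change 0.83, SE 0.11), as did Bscl2, which encodes seipin. Cideb and Tmem159 fell.

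**Figure D5:**
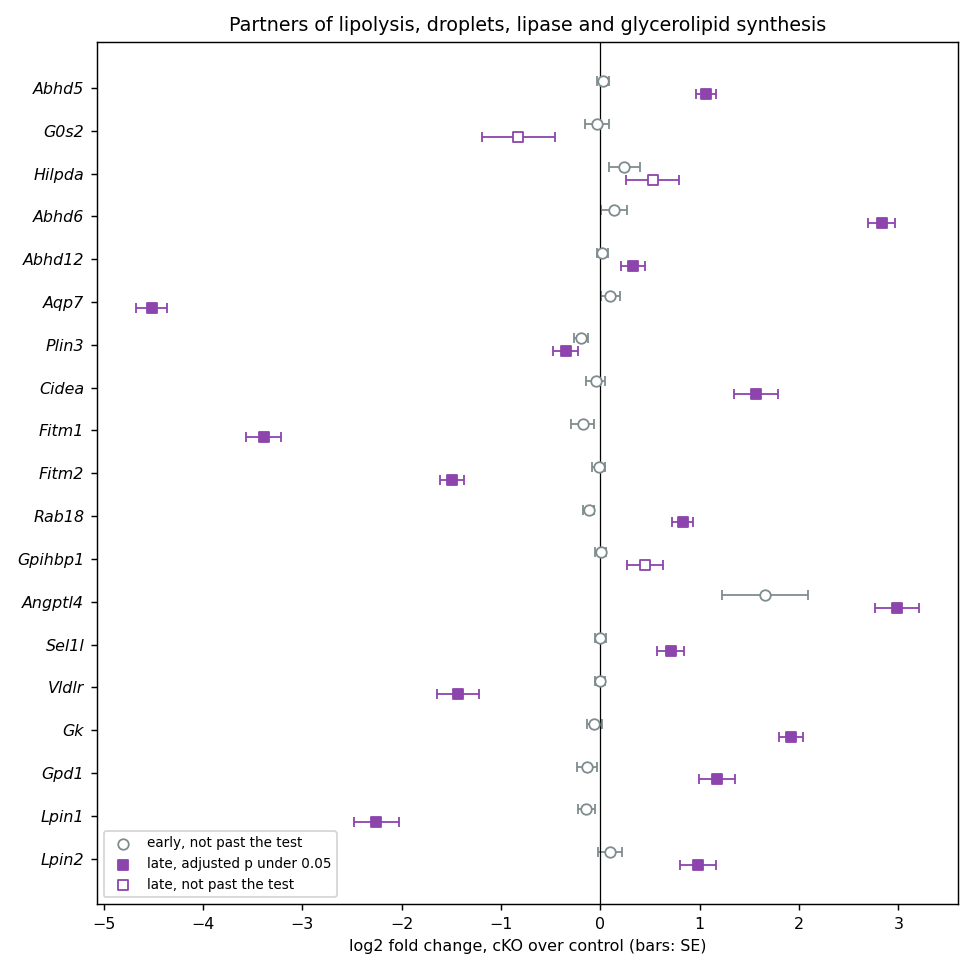
Log2 fold change of cKO over control, with standard errors, for partner genes of lipolysis, droplets, lipase handling and glycerolipid synthesis, early (circles) and late (squares), filled where the adjusted p was under 0.05. No early value passed, and late values run from -4.52 for Aqp7 to 2.98 for Angptl4.

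Early, the differences of the 10 genes were small, and none passed edgeR's test. At an unadjusted p under 0.05 there were 3 of the 10, beside 1387 of all 13529 tested genes. These were Lpl (0.00221), Ces1d (0.00720) and Mgll (0.0477), and all 3 were lower in cKO hearts. DESeq2 called Lpl (adjusted p = 0.00757), and edgeR without a filter on low counts called Ces1d (adjusted p = 0.00150). In 2 of the 10 genes the early groups did not overlap, beside 5.65% of all tested genes. Lpl stood at 4314, 4029, 4346 and 4310 CPM in early cKO hearts against 5041, 4844, 5511 and 4754 CPM in early controls. All 4 cKO hearts were below all 4 controls, by a log2 fold change of -0.25 with an SE of 0.06 (adjusted p = 0.161). The summed cardiomyocyte markers were likewise lower in every early cKO heart than in any control, and the adipocyte markers higher, and their part in these values was not tested. Ces1d stood at 106, 110, 94.2 and 104 CPM in early cKO hearts against 131, 115, 184 and 117 CPM in early controls. Control replicate 3 was the highest, and control replicates 2 and 4 were just above the cKO hearts (log2 fold change -0.40, SE 0.13, adjusted p = 0.265). Dgat2 ran from 246 to 333 CPM in early cKO hearts and from 302 to 432 CPM in early controls, where control replicate 3 was again the highest. Plin2 ran from 49.7 to 60.8 CPM in early cKO hearts and from 48.8 to 53.0 CPM in early controls. Pnpla2, Lipe, Dgat1, Plin4 and Plin5 had early log2 fold changes between -0.09 and 0.03. Leaving out cKO replicate 4, the heart with the conflicting genotype field, or counting it as a control left 0 of the 10 called.

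In that heart 2 genes known to respond to fatty acids were at or below control level. Angptl4 stood at 12.4, 22.3, 12.5 and 2.78 CPM in early cKO hearts against 3.05, 4.59, 4.17 and 4.03 CPM in early controls. Replicate 4 was below every control, while the other 3 cKO hearts were all above them. The difference did not pass with all hearts (log2 fold change 1.66, SE 0.43, adjusted p = 0.162) and did without replicate 4 (1.99, adjusted p = 0.000546). Pdk4, a kinase that blocks glucose oxidation, stood at 793, 933, 576 and 279 CPM in early cKO hearts against 363, 366, 261 and 409 CPM in early controls. Replicate 4 again lay in the control range (log2 fold change 0.88 with all hearts, adjusted p = 0.261, and 1.13 without replicate 4, adjusted p = 0.00357). For Lpl and Ces1d, in contrast, replicate 4 lay with the other cKO hearts. The thioesterase gene Acot2 stood at 82.4, 66.6, 64.9 and 60.8 CPM in early cKO hearts against 49.9, 47.2, 58.2 and 56.1 CPM in early controls. Here replicate 4, like each other cKO heart, was above every control. The Acot2 difference did not pass in edgeR (log2 fold change 0.38, adjusted p = 0.148) and did in DESeq2 (adjusted p = 0.0338).

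The change in the knockout difference between the times was tested in a fit of all 14 libraries. In that test 4 of the 10 genes (Pnpla2, Dgat1, Plin2, Plin4) had a higher log2 fold change late than early, beside 29.8% of 14555 tested genes, and 4 (Mgll, Dgat2, Plin5, Ces1d) a lower one, beside 31.3%. Plin2 differed by 1.04 with an SE of 0.13 (adjusted p = 3.76e-06) and Plin5 by -1.24 with an SE of 0.22 (adjusted p = 0.000147). Ces1d differed by -7.49 with an SE of 0.34 (adjusted p = 1.34e-10). For Lpl the difference was -0.15 with an SE of 0.12 (adjusted p = 0.286), and for Lipe -0.31 with an SE of 0.16 (adjusted p = 0.103), so a change between the times was not shown for these 2.

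Levels of different genes were compared as CPM per kilobase of exon. In late controls the order was Lpl (429 ± 24.5), Pnpla2 (138 ± 10.6), Dgat2 (124 ± 20.2), Ces1d (75.4 ± 22.0), Plin5 (61.6 ± 15.003), Plin4 (39.7 ± 2.86), Mgll (39.7 ± 2.08), Plin2 (18.1 ± 1.19), Lipe (11.3 ± 0.66) and Dgat1 (6.75 ± 0.67; SD, n = 3). Pnpla2 and Dgat2 overlapped, as did Ces1d and Plin5, and Plin4 and Mgll, while each other neighbour was lower in every heart. In late cKO hearts the order was Lpl (322 ± 15.4), Pnpla2 (233 ± 28.2), Dgat2 (64.3 ± 5.10), Plin4 (56.7 ± 11.7), Plin2 (40.6 ± 3.79), Plin5 (24.3 ± 4.76), Mgll (24.2 ± 2.70), Dgat1 (13.1 ± 2.18), Lipe (9.19 ± 1.23) and Ces1d (0.312 ± 0.119; SD, n = 3). There Dgat2 overlapped Plin4, Plin4 overlapped Plin2, and Plin5 overlapped Mgll. Dgat1 lay below Lipe in every late control and above it in every late cKO heart, and Ces1d held the fourth place in controls and the last in cKO hearts. With principal transcript lengths the same places held for Lpl, Pnpla2, Dgat2 and Ces1d in both groups, and Dgat1 again lay below Lipe in controls and above it in cKO hearts. Under those lengths Mgll lay above Plin4 in late controls, and Plin2 above Plin4 in late cKO hearts.

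Several of these genes are known targets of PPAR nuclear receptors, which sense fatty acids. Of 20 tested PPAR regulators and targets, 5 rose and 7 fell late, with a median log2 fold change of -0.10. These calls were no more frequent than the 65.0% over all tested genes. Acot2, a mitochondrial acyl-CoA thioesterase, rose (log2 fold change 2.24, SE 0.13), as did Pdk4 (2.05, SE 0.25), Cpt1a and Fabp3. Slc27a1, a fatty acid transporter, fell (-2.01, SE 0.16), as did Ppard, Rxra, Ucp3, Acadm and Acadvl. Thus the list did not move in 1 direction. Early, 1 of the 20 was called. Ppargc1a, a coactivator of mitochondrial genes, stood at 84.3, 70.7, 79.3 and 98.5 CPM in early cKO hearts against 123, 144, 110 and 119 CPM in early controls. All cKO hearts were lower (log2 fold change -0.58, SE 0.10, adjusted p = 0.0223), and the call was lost when any 1 of 5 of the 8 hearts was left out (adjusted p = 0.0562 to 0.0727). The late difference in Ppargc1a did not pass (log2 fold change -0.49, SE 0.26, adjusted p = 0.135), with 79.4, 54.9 and 33.7 CPM in late cKO hearts against 73.3, 70.6 and 91.5 CPM in late controls. It was -0.82 without cKO replicate 1 (adjusted p = 0.0112) and -0.21 without cKO replicate 3 (adjusted p = 0.247).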

How the data were processed

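RNA of 14 hearts was measured by poly-A selected, unstranded RNA-seq with single-end reads, per the labels' protocols. The submitters' processing notes name Trimmomatic 0.36, STAR 2.6.0c and the build GRCm38; which tool and annotation gave the counts is not given in the sources used here. In the deposited files, the values are raw counts per gene symbol, in 1 table per time point. Genotype and time were taken from the labels. Nothing in the labels states that each library came from another animal; the p-values then reflect spread between samples that may be technical.

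Counts were tested with edgeR 4.0.16 (R 4.3.3; TMM, filterByExpr with a minimum count of 10 and minimum total of 15, quasi-likelihood F test, Benjamini-Hochberg adjustment over all genes tested, called under 0.05), each table alone, and in a fit of all 14 libraries for the difference between times. Depths of 15657298 to 35750964 counts leave Ces1d in late cKO hearts at 18 to 35 counts and every other member at 282 or more. The standard error is the log2 fold change over the square root of F. From the deposited counts, CPM was computed with TMM-scaled library sizes, and lengths and coordinates come from GENCODE M21, which held 53.2% of the symbols and all 10 members. Ratios of counts (plus 0.5) were compared over hearts by exact permutation, two-sided. DESeq2 1.42.0, other size factors, no filter, genes without the mitochondrially encoded ones, left-out hearts and a replicate block were alternatives. The procedure was tested on simulated counts.

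The members and gene lists were chosen with earlier results of these data known. Named beside the members are up to 4 called genes per list with the smallest late p, any called early, and G0s2, Abhd5, Hilpda, Plin1, Plin3, Gpihbp1 and Angptl4.
Of the genes in these lists, 3 are counted but not reported here.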

Additional observations from a re-analysis of the deposited data

Results flagged for a closer look

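In 8 of 72 group and gene combinations of the early hearts that were looked at, 1 heart lay far from the other 3 of its group by Dixon's test, which flags about 1 in 20 groups by chance. Among the 10 genes these were Pnpla2 in cKO replicate 4 (373.8 CPM, highest), Lipe in cKO replicate 1 (68.9 CPM, highest), Lpl in cKO replicate 2 (4029 CPM, lowest), Dgat1 in cKO replicate 2 (19.5 CPM, highest) and Dgat2 in control replicate 3 (432 CPM, highest). Among their partners they were Fitm1 in control replicate 3 (97.1 CPM, highest), Plin1 in control replicate 1 (0.239 CPM, highest, from 4 counts) and Gpihbp1 in control replicate 4 (62.4 CPM, highest).

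The knockout difference itself differed between the times (late minus early log2 fold change, edgeR fit of all 14 libraries, adjusted p under 0.05) for 8 of the 10 genes. It was higher late for Plin2 (1.04), Dgat1 (0.97), Pnpla2 (0.75) and Plin4 (0.57), and lower late for Ces1d (-7.49), Plin5 (-1.24), Dgat2 (-0.68) and Mgll (-0.54). Among regulators of lipolysis it was higher for Abhd6 (2.71), Abhd5 (1.06) and Abhd12 (0.32), and lower for Aqp7 (-4.60). Among droplet genes it was higher for Cidea (1.63) and Rab18 (0.96), and lower for Fitm1 (-3.19) and Fitm2 (-1.46). Plin1, a fat cell gene with 0 to 53 counts per library, was also lower (-6.62), and beside it the adipocyte markers were higher in cKO hearts than in controls early and overlapped late. Among genes that handle Lpl the difference was higher for Sel1l (0.72) and Gpihbp1 (0.47), and lower for Vldlr (-1.42). Among genes of glycerolipid synthesis it was higher for Gk (1.99), Gpd1 (1.32) and Lpin2 (0.90), and lower for Lpin1 (-2.10). Among PPAR targets it was higher for Acot2 (1.88) and Pdk4 (1.18), and lower for Slc27a1 (-1.95). Of the 14 fits that left out a heart, the call for Gpihbp1 was lost in 10, that for Abhd12 in 6 and that for Pdk4 in 3. Without late cKO replicate 3 the differences were 0.27 for Gpihbp1 and 0.21 for Abhd12, and without late cKO replicate 1 that for Plin1 was -10.9.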

How the results depend on the processing

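No value of the 10 genes changed direction past the test under any alternative. The number of the 10 called early was 0, and 1 with DESeq2 (Lpl) and 1 without a filter on low counts (Ces1d); it was 0 in all 8 fits that left out a heart. Late it was 9, and 7 to 9 when a heart was left out. For the difference between times it was 8, and 8 to 9 when a heart was left out. Scaling with RLE factors and leaving out mitochondrially encoded genes changed no call of the 10. The numbers of the replicates did not pair the hearts (correlations of same-numbered hearts from -0.089 to -0.036 early and -0.412 to -0.058 late). With a replicate block, 7 of the 10 were called late, Lpl (adjusted p = 0.0701) and Plin4 (0.0540) no longer passing; 0 were called early, and 8 for the difference. Among the partner genes the block also ended the calls for late Plin3 (adjusted p = 0.0703), late Abhd12 (0.118) and early Ppargc1a (0.0586). It ended those for the differences between times of Abhd12 (0.0812) and Gpihbp1 (0.117) too. The Angptl4 difference between times (1.35) did not pass without the block (adjusted p = 0.0528, edgeR) and passed with it (0.0255). Angptl4 also passed there with RLE factors (0.0486), without a filter (9.95e-05) and with early cKO replicate 4 as a control (0.0237). The same held without early cKO replicate 2 (0.00780) or 4 (0.0174), late cKO replicate 1 (0.0481) or late control replicate 2 (0.0381). Without a filter on low counts, late G0s2 (0.00249) and Ppargc1a (0.0344) passed, and late Abhd12 did not (0.0720). Early Angptl4 (1.94e-07), Pdk4 (6.24e-06) and Acot2 (0.00168) also passed without it. Lipe passed in the difference between times when early cKO replicate 4 was counted as a control (adjusted p = 0.0497) and without late cKO replicate 1 (0.0490). Over all genes, the early number called was 83, against 177 with DESeq2, 388 without a filter, 162 with early cKO replicate 4 as a control and 45 to 181 when a heart was left out. Group sizes of 3 and 4 and the late hearts' spread limit small changes such as those of Lpl, Lipe and Plin4.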
